A study of Mus musculus with 3 samples.

Results

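The tumour necrosis factor (TNF) superfamily was followed on the 3 kidney arrays of the series through every probe set with a single platform gene symbol for a ligand (Tnf, Lta, Ltb, Fasl, Cd40lg, Cd70, Eda and the Tnfsf symbols), a receptor (the Tnfrsf symbols, Ltbr, Fas, Cd40, Edar, Eda2r and Ngfr) or a TNF receptor-associated factor (Traf1 to Traf7). This gave 82 of the 45101 probe sets on the array, for 46 of 18193 gene symbols: 25 probe sets of 14 ligand genes, 42 of 25 receptor genes and 13 of 6 TRAF genes. The remaining 2 probe sets, of Tnfsf13os, match the symbol rule but not the family by function. The groups were kidneys of 2 C57BL/6 mice given acetate, the short-chain fatty acid written C2 in the labels, in the drinking water at 200 mM, starting at 3 weeks of age and lasting 6 weeks, and the kidney of 1 C57BL/6 control mouse. All 3 were conventionally housed, and the starting age of 3 weeks is recorded for the control mouse as well. What the control mouse drank is not given beyond the word control, and with 1 control array every difference holds whatever was particular to that kidney.

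TNF superfamily ligands are trimers, mostly held in the membrane of immune cells until they are cleaved or meet a partner cell. Their receptors either carry a death domain, which assembles caspase-8 complexes, or bind TRAF adaptors, which assemble ubiquitin chains that activate NF-kB and stress kinases. In the kidney, resident macrophages, tubule cells and endothelium all use these receptors, and tubule cells are a known target of TNF and of the TNF-like ligand TWEAK.

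Expression is given as the log2 values deposited by the authors, on which 1 unit stands for 2-fold, and each difference is an acetate array minus the control array. Array medians lay between 4.91 and 4.94. Tissue markers fitted the kidney label, with Umod at 13.67 and 13.64 in the acetate-fed kidneys and 13.53 in the control kidney. Fat markers stood apart on the control array: Adipoq, the adipocyte hormone adiponectin, was 4.38 and 3.87 in the acetate-fed kidneys and 9.98 in the control. The 4 fat markers on the array summed to 59.8 and 55.6 on the linear scale in the acetate-fed kidneys and 1477 in the control kidney, and their part in the results below was not tested.

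No member differed 2-fold or more from the control kidney in both acetate-fed mice. Among all 27022 probe sets in the upper 60% by mean value, 0.344% were at least 2-fold higher in both mice and 0.359% at least 2-fold lower. Of the members, 39 probe sets of 26 genes passed that filter and 43 probe sets were below it, so that 20 genes had no probe set above it. At 1.5-fold, 1 member probe set, of Tnfrsf1b, was higher in both mice and 0 were lower, against 1.67% and 1.23% of all probe sets that passed. Of the 39 members that passed the filter, taken mouse by mouse at that limit, 3 were higher in mouse 1 (3.85% of all probe sets that passed) and 1 in mouse 2 (2.46%). Below the filter, 1 further member, Traf1, was that much higher and 1, Tnfrsf8, that much lower, both in mouse 1. The largest upward differences in the family were those of Tnfsf13b, Tnfrsf1b, Ltb and Traf1, each highest in acetate-fed mouse 1, intermediate in acetate-fed mouse 2 and lowest in the control.

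**Figure D1:**
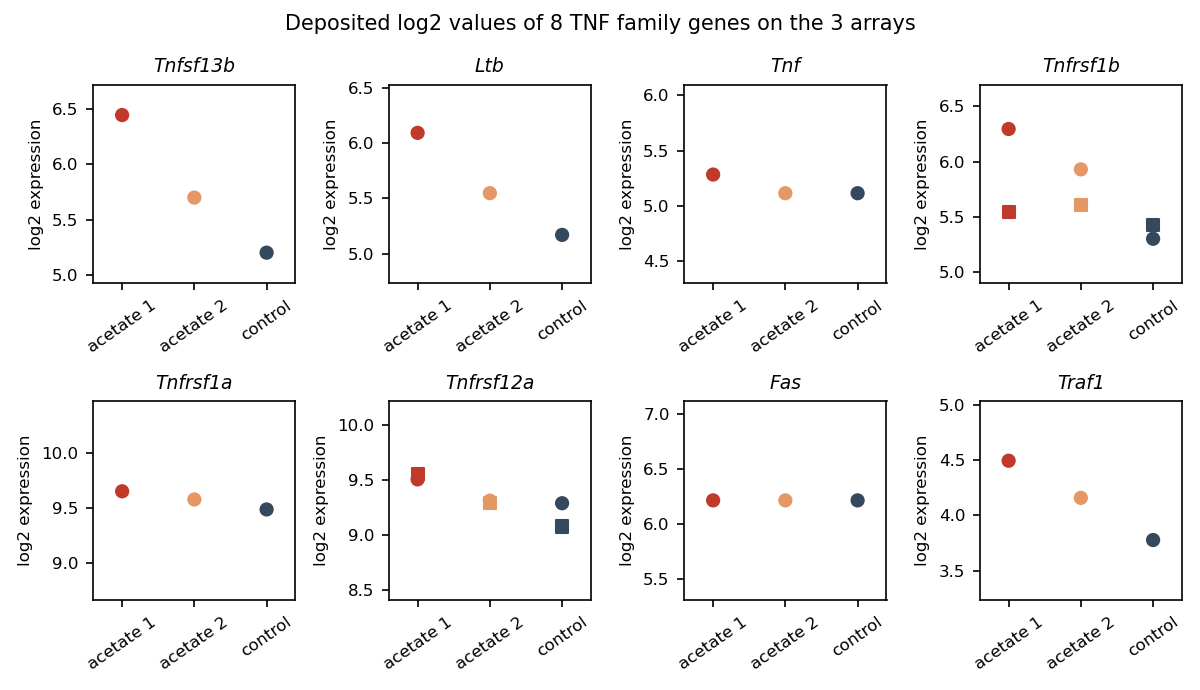
Deposited log2 values (vertical axis, spanning the same 1.8 units in each panel) of 8 family genes on the arrays of acetate-fed mouse 1, acetate-fed mouse 2 and the control mouse (horizontal axis); circles are the probe set with the highest mean and squares a further probe set of Tnfrsf1b and Tnfrsf12a. Tnfsf13b, Ltb, Tnfrsf1b (circles) and Traf1 are lower in the control than in either acetate-fed kidney, while Fas has the same value, 6.21, on all 3 arrays. Not drawn are the further probe sets of Tnfsf13b and Traf1, all below the filter, which differed from the control by at most 0.07.

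Among the ligands, Tnfsf13b encodes BAFF, a survival factor for B cells that is made mainly by myeloid and stromal cells. Its probe set with the highest mean read 6.45 in acetate-fed mouse 1 and 5.70 in acetate-fed mouse 2, against 5.20 in the control, which is 2.37-fold and 1.41-fold higher. It was the 1 member at least 2-fold from the control in either mouse, where 1.42% of all probe sets that passed the filter were at least 2-fold higher in mouse 1. Mean values were 6.07 ± 0.53 in the acetate-fed kidneys (SD, n = 2) and 5.20 in the control, and the gap of 0.75 between the acetate-fed mice was larger than the 0.50 between mouse 2 and the control. Both other Tnfsf13b probe sets were below the filter and differed from the control by at most 0.07.

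Ltb encodes lymphotoxin beta, which anchors lymphotoxin alpha in the membrane and is needed to form lymphoid tissue. Ltb read 6.09 and 5.55 in the acetate-fed kidneys and 5.17 in the control, 1.90-fold and 1.30-fold higher. Here too the acetate-fed mice lay further apart (0.55) than mouse 2 and the control (0.38). Its partner Lta, below the filter, was 3.45 and 3.39 in the acetate-fed kidneys and 3.39 in the control.

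Tnfrsf1b encodes TNF receptor 2, which has no death domain, signals through TRAF adaptors and is found on leukocytes and endothelium. Its probe set read 6.30 and 5.93 in the acetate-fed kidneys against 5.30 in the control, 1.99-fold and 1.55-fold higher. Both differences were larger than the 0.37 between the acetate-fed mice. A further Tnfrsf1b probe set moved the same way by much less, with 5.54 and 5.60 in the acetate-fed kidneys and 5.42 in the control. In bulk kidney tissue, more cells that carry such a transcript and more transcript per cell cannot be told apart.

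Traf1 encodes an adaptor without the RING domain of the other TRAFs and is a known NF-kB target in leukocytes. It read 4.50 and 4.16 in the acetate-fed kidneys and 3.78 in the control, 1.65-fold and 1.30-fold higher, but its mean was below the filter and it entered no test. A further Traf1 probe set read 3.61 on all 3 arrays. Ltb, Traf1 and Tnfrsf12a are named here because of their values and lie partly outside the naming rule.

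The promoters of these 4 genes are shown because each gene stood above the control in both mice, with that of Tnfrsf9, the receptor 4-1BB, for contrast, since it holds matches to 2 of the 3 motifs searched and differed little (4.20 and 4.09 in the acetate-fed kidneys and 4.09 in the control). Each runs from 250 bases before to 50 after a RefSeq start on GRCm38.p6, in the direction of the gene, with motif matches in capitals. Tnfsf13b has 2 annotated starts, and the window of the downstream one is given. Tnfrsf9 also has an upstream start, whose window (chr4:150919905-150920204) held no match and is not shown. Tnfrsf8, also not shown, held matches to the same 2 motifs as Tnfrsf9 and differed by -0.67 in mouse 1 and 0 in mouse 2.
Tnfsf13b, chr8:10006383-10006682, plus strand: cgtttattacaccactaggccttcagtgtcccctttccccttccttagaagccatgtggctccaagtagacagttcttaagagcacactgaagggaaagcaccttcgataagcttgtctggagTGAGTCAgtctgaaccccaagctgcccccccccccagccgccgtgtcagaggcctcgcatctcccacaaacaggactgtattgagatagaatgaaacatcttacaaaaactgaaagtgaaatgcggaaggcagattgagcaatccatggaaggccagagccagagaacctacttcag
Ltb, chr17:35194257-35194556, plus strand: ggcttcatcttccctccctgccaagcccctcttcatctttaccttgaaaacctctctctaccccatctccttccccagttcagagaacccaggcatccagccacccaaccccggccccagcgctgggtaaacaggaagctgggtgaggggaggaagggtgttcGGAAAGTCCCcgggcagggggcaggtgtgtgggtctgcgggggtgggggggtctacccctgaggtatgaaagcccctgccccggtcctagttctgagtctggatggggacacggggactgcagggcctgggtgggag
Tnfrsf1b, chr4:145246821-145247120, minus strand: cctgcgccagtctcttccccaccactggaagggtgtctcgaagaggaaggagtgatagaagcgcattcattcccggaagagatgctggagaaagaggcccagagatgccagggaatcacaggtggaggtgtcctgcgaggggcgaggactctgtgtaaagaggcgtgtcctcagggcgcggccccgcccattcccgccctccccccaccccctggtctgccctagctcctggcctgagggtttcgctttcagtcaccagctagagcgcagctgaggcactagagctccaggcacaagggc
Traf1, chr2:34961723-34962022, minus strand: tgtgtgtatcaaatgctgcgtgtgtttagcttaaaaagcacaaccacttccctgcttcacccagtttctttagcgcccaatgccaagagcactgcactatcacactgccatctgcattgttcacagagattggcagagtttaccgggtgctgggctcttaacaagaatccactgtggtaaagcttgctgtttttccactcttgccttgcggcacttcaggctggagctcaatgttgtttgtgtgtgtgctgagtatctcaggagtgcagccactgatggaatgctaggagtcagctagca
Tnfrsf9, chr4:150927749-150928048, plus strand: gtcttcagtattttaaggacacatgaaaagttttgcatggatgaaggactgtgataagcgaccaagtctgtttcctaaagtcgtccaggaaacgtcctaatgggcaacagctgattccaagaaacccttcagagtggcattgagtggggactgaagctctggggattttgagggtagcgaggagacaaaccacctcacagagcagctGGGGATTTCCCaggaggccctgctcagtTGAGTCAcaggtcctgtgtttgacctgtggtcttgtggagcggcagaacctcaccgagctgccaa

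The NF-kB consensus, AP-1 (TGANTCA) and the ETS/PU.1 core (GAGGAAGT) were searched on both strands in 41 promoters of 37 family genes. Ltb held 1 NF-kB match (GGAAAGTCCC, on the opposite strand, starting 87 bases before the start), and Tnfsf13b held TGAGTCA, an AP-1 match, 127 bases before the downstream start. Tnfrsf1b and Traf1 held none of the 3 in these windows. Tnfrsf9 held overlapping NF-kB matches and an AP-1 match 15 bases before its downstream start, and in no printed window did matches to different motifs overlap. In the family, 4 of 41 promoters held the NF-kB consensus, 6 AP-1 and 1 the ETS/PU.1 core, against 8.46%, 7.81% and 3.20% of all 32851 promoters. The 6 AP-1 promoters belong to 5 genes, since both overlapping Tnfsf13b windows hold the same TGAGTCA, which was counted in each. A match is a description of letters and not a binding site.

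The remaining TNF ligands moved little. Tnf itself, the founding inflammatory cytokine, read 5.28 and 5.11 in the acetate-fed kidneys and 5.11 in the control. The value common to acetate-fed mouse 2 and the control was also that of 67 and 28 other probe sets on these arrays. Equal Tnf mRNA levels in these kidneys cannot be read from it. Fasl, which triggers apoptosis through Fas, was below the filter, at 3.45 and 3.63 in the acetate-fed kidneys and 3.32 in the control. Tnfsf11, the osteoclast factor RANKL, read 4.36 in both acetate-fed kidneys and 4.65 in the control, 1.23-fold lower. All 3 probe sets of Tnfsf10, the apoptosis ligand TRAIL, had identical values on the 3 arrays (6.97, 5.73 and 4.99), as did Cd40lg at 4.70 and Tnfsf9, the 4-1BB ligand, at 4.44. Cd70, Tnfsf4 (OX40 ligand), Tnfsf8 (CD30 ligand) and Tnfsf14 (LIGHT) were below the filter, with differences between -0.02 and 0. The 5 probe sets of Eda, the skin-appendage ligand ectodysplasin, differed from the control by -0.19 to 0.07.

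Among the death domain receptors, Tnfrsf1a, TNF receptor 1, read 9.65 and 9.58 in the acetate-fed kidneys against 9.49 in the control. These differences of 0.16 and 0.09 both exceeded the 0.07 between the acetate-fed mice. Fas was at 6.21 on all 3 arrays. Tnfrsf21, death receptor 6, read 10.69 and 10.73 in the acetate-fed kidneys and 10.66 in the control on one probe set, and 8.70, 8.70 and 8.45 on the other. Tnfrsf25, death receptor 3 of T cells, was 4.50 in both acetate-fed kidneys and 4.72 in the control, 1.16-fold lower. Tnfrsf10b, the mouse TRAIL receptor, was below the filter, its brighter probe set differing by 0.13 in both mice. Ngfr, the p75 neurotrophin receptor, gave probe sets of opposite direction: 5.89 and 5.89 in the acetate-fed kidneys against 6.11 in the control on one, and 4.44 and 4.64 against 4.34 on another that passed the filter.

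Among receptors that signal through TRAFs, Tnfrsf12a (Fn14), the receptor of TWEAK, is induced in injured tubules. One probe set read 9.50 and 9.31 in the acetate-fed kidneys and 9.29 in the control. The other read 9.55 and 9.29 against 9.08, 1.39-fold and 1.16-fold higher. Acetate-fed mouse 1 was above the control on both, and mouse 2 by 0.02 on the first and 0.22 on the second.

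Tnfrsf4, the T cell co-stimulator OX40, read 6.62 and 6.50 in the acetate-fed kidneys and 6.36 in the control, both differences beyond the 0.12 between the acetate-fed mice. Ltbr, the lymphotoxin beta receptor, which epithelial and stromal cells express, was 9.39 in both acetate-fed kidneys and 9.34 in the control, so it differed by 0.05 where its ligand Ltb differed by 0.92 and 0.38. Cd40, the co-stimulatory receptor of antigen-presenting cells, had differences of 0, of 0.05 and 0, and of 0.12 and 0.12 on its 3 probe sets. Tnfrsf11a (RANK) was at 4.59 on all 3 arrays.

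The 3 receptors of BAFF, which mark B cells and plasma cells, were all below the filter. Tnfrsf13c (BAFF receptor) read 3.78 and Tnfrsf17 (BCMA) 3.47 on every array, and Tnfrsf13b (TACI) read 3.62 and 3.58 in the acetate-fed kidneys and 3.47 in the control. Tnfrsf11b, the soluble decoy osteoprotegerin, was at 3.78 on all 3 arrays. Tnfrsf18 (GITR) differed by 0.17 and 0.35 and Eda2r, an ectodysplasin receptor, by 0.27 in both mice, both below the filter. Tnfrsf8 (CD30) had the largest decrease of any member, in mouse 1 alone: 3.61 and 4.28 in the acetate-fed kidneys and 4.28 in the control. Its value in mouse 1 was also that of 433 other probe sets on the same array. The other receptors below the filter, Edar, Tnfrsf14 (HVEM), Tnfrsf19 (TROY), Tnfrsf23 and Tnfrsf9, had differences between -0.12 and 0.11. Tnfrsf22, a mouse TRAIL decoy receptor related to Tnfrsf23, had probe sets of opposite direction (-0.11 and -0.28, and 0.06 in both mice). The 3 family probe sets annotated to several symbols were left unnamed.

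Of the TRAFs, Traf2, the main adaptor of both TNF receptors, read 7.39 on all 3 arrays. Traf6, which serves CD40, RANK and Toll-like receptors, read 6.07 on all 3 arrays with its brightest probe set. Traf5 was lower in both mice, at 6.23 and 6.09 in the acetate-fed kidneys and 6.35 in the control. Traf4 read 8.34 and 8.48 against 8.48, and Traf7, an atypical member without the TRAF domain, 7.70 in both acetate-fed kidneys against 7.65.

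**Figure D2:**
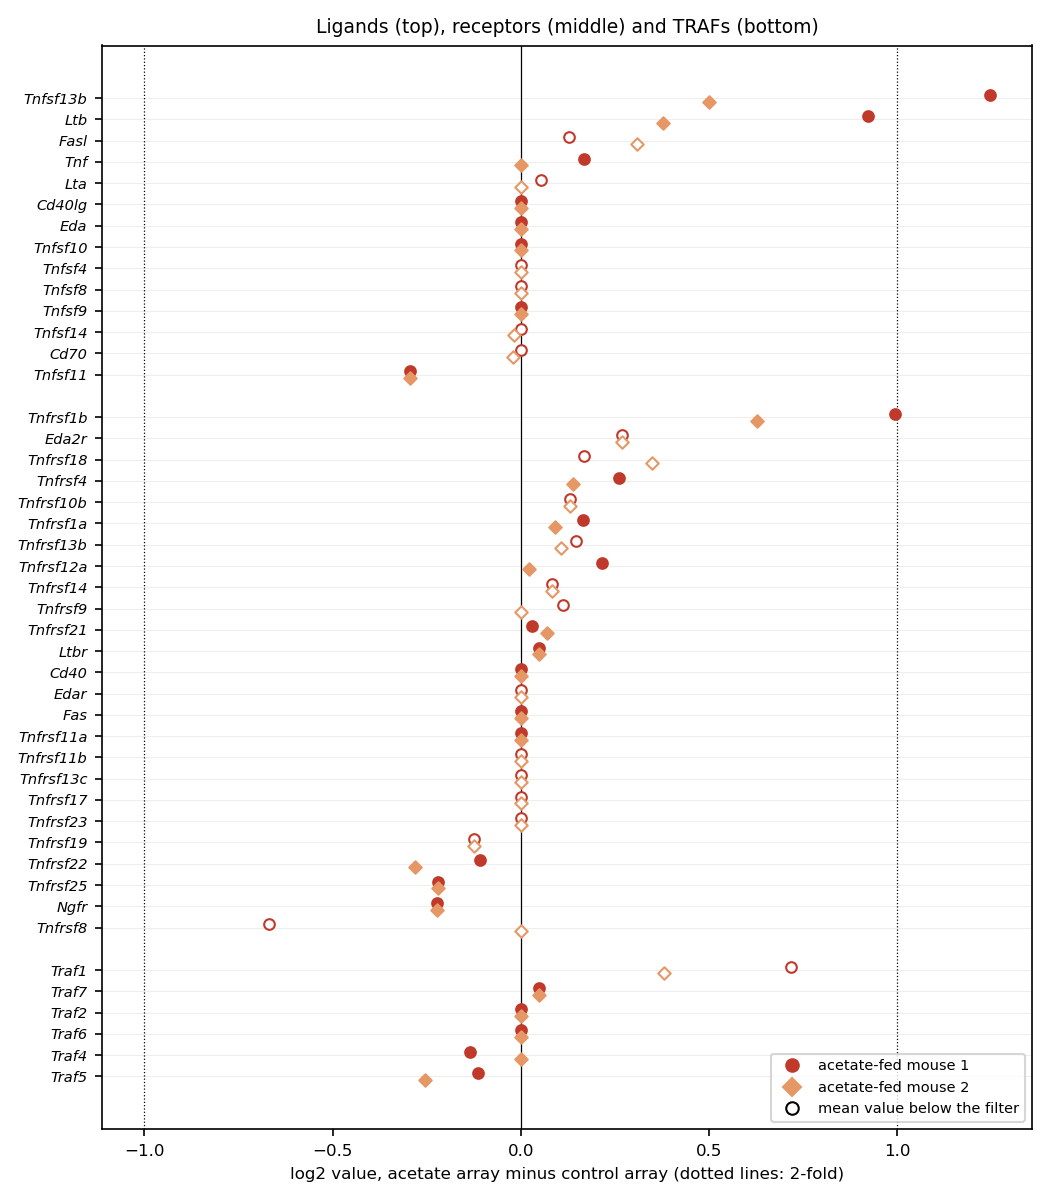
Difference from the control array in log2 units (horizontal axis) for the probe set that represents each of 45 family genes (vertical axis), circles for acetate-fed mouse 1 and diamonds for acetate-fed mouse 2, with open symbols for genes below the filter and dotted lines at 2-fold. Tnfsf13b, Ltb, Tnfrsf1b and Traf1 lie to the right in both mice, and Tnfrsf8 lies to the left in mouse 1 alone.

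Counted together, 15 of the 39 member probe sets that passed the filter were higher in both acetate-fed kidneys by any amount and 5 were lower, against 26.9% higher and 27.5% lower among all probe sets that passed. Of the 19 receptor probe sets, 12 were higher in both and 3 lower. Tnfrsf12a, Tnfrsf1b and Tnfrsf21 entered the higher count with more than 1 probe set, and Ngfr and Tnfrsf22 had probe sets on both sides. By the brightest probe set of each gene, 6 of 12 receptor genes were higher in both and 3 lower. Of the 12 ligand probe sets, 2 were higher and 1 lower, and of the 7 TRAF probe sets 1 was higher and 1 lower. The remaining probe set was that of Tnfsf13os. The median difference over the 39 members was 0 in each mouse, as it was over all probe sets. Both differences were upward and larger than the gap between the acetate-fed mice, with the pair not tied, at 4 member probe sets (Tnfrsf1a, Tnfrsf4 and both of Tnfrsf1b), against 12.1% of all probe sets that passed.

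Identical values were common. Of the 39 member probe sets, 15 (38.5%) had exactly the same value on all 3 arrays, against 20.5% of all probe sets that passed the filter, and of all 82 members 34 (41.5%), against 30.0%. These flat values were not particular to the gene measured. Each of the 34 control values was also the value of 13 to 551 other probe sets on the same array, with a median of 221.5. The control value of Fas, 6.21, was shared with 13 other probe sets, that of Traf2 with 19, that of the brightest Tnfsf10 probe set with 32, and that of Cd40lg with 209. On the control array 62.5% of probe sets shared their value with another. Every member with no difference on any array thus held such a shared value, and equal mRNA levels of Fas, Tnfsf10 or Traf2 in the 3 kidneys cannot be read from it. The control values of Tnfsf13b, Ltb, Traf1 and of the Tnfrsf1b probe set that moved most were shared with 0 others. In acetate-fed mouse 1 the values of Ltb and Traf1 were shared with 65 and 284. In acetate-fed mouse 2 those of Tnfsf13b and the same Tnfrsf1b probe set were shared with 101 and 36. The control values of Tnfrsf4 and of the other Tnfrsf1b probe set were shared with 58 and 94, and the mouse 2 value of Tnfrsf4 with 54.

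**Figure D3:**
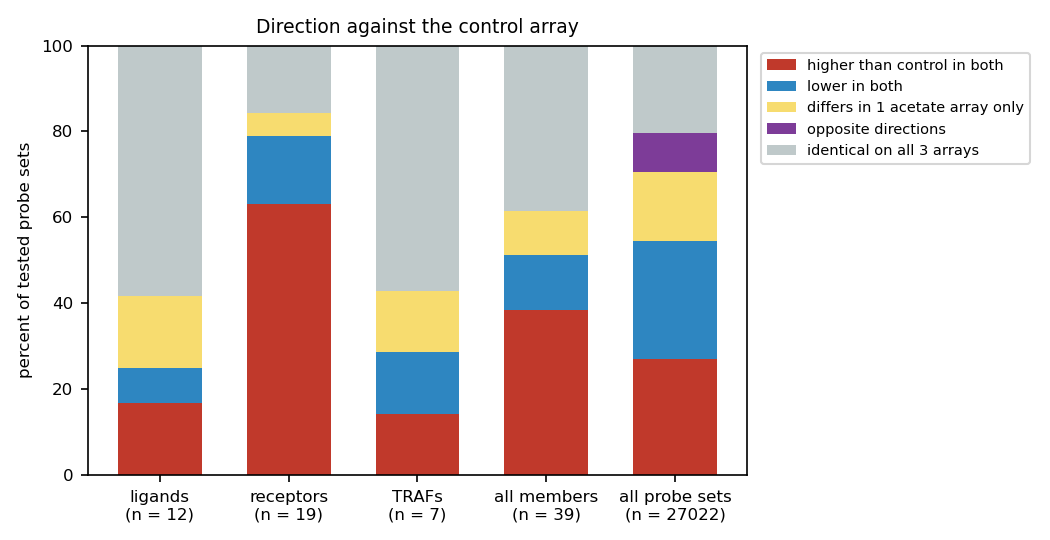
Percent of tested probe sets (vertical axis) by direction against the control array, for 12 ligand, 19 receptor and 7 TRAF probe sets, all 39 members and all 27022 tested probe sets. Identical values on all 3 arrays make up 38.5% of the members and 20.5% of all probe sets.

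The test across all genes was limma's moderated test, acetate against control, with Benjamini-Hochberg adjustment over all 27022 probe sets. It called 3 member probe sets higher and 3 lower, where 5.18% and 5.35% of all probe sets were called. Tnfrsf21 (log2 difference 0.24, adjusted p = 0.023), Cd40 (0.12, adjusted p = 0.011) and Tnfrsf22 (0.06, adjusted p = 0.011) were called higher by limma, and Tnfsf11 (-0.29, adjusted p = 0.0091), Tnfrsf25 (-0.22, adjusted p = 0.0091) and Ngfr (-0.22, adjusted p = 0.0096) lower. For all 6 the 2 acetate-fed values were exactly equal, so the spread that the test compared with was close to 0. The acetate-fed value of Tnfsf11 was shared with 204 other probe sets in mouse 1 and 226 in mouse 2. That of Tnfrsf25 was shared with 284 and 280, that of Ngfr with 68 and 66 and that of Cd40 with 27 and 52. Such counts were 8 and 1 for Tnfrsf21, and 1 and 0 for Tnfrsf22. The 3 higher calls were on dimmer probe sets of their genes. The brightest probe sets of Tnfrsf21, Cd40 and Tnfrsf22 were not called, with mean differences of 0.05, 0 and -0.20. Tnfsf13b (adjusted p = 0.73), Ltb (adjusted p = 0.72) and Tnfrsf1b (adjusted p = 0.48) did not pass limma's test in this fit. In the upper 40% of probe sets, after quantile normalization and after median centring, limma called 0 of all probe sets, so all 6 calls ended there.

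With exactly tied acetate pairs left out of limma, none of those 6 could be fitted, and 3 of the 16 member probe sets left were called, all higher, against 6.55% higher and 4.97% lower among the 17923 probe sets fitted. They were Tnfrsf1b (0.81 ± 0.17 SE, adjusted p = 0.0013), Tnfsf13b (0.87 ± 0.20 SE, adjusted p = 0.0034) and Ltb (0.65 ± 0.18 SE, adjusted p = 0.017). The other Tnfrsf1b probe set was not called by limma (0.15, adjusted p = 0.78). In that fit the pooled prior weighed 26.5 degrees of freedom and the acetate pair 1, so the calls rest on the size of the mean difference.

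Downstream of the receptors, the transcription factors and inhibitors of NF-kB were the list with the most uniform direction, with 8 of 9 tested genes higher in both mice, 0 lower in both, and median differences of 0.59 in mouse 1 and 0.25 in mouse 2. Over all probe sets that passed the filter, 26.9% were higher in both mice and 27.5% lower. Nfkbiz, an inducible nuclear IkB protein, read 7.31 and 7.11 in the acetate-fed kidneys against 6.13 in the control, 2.25-fold and 1.96-fold higher. Relb, the partner of the alternative pathway that lymphotoxin and BAFF receptors use, read 6.40 and 6.00 against 5.49 in the control. Nfkbid, another nuclear IkB protein, read 5.36 and 5.17 in the acetate-fed kidneys and 4.64 in the control. Rel, below the filter, differed by 0.31 in mouse 1 and -0.03 in mouse 2. None of the 9 tested genes passed limma's test over all probe sets (0 calls). With tied pairs left out 3 were called higher by limma, Nfkbiz (adjusted p = 1.0e-05), Relb (adjusted p = 0.0050) and Nfkbid (adjusted p = 0.012), against 6.55% of all probe sets fitted.

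Among 15 tested genes known to be induced by TNF, 12 lay above the control in both mice and 1 below, against 26.9% and 27.5% of all probe sets that passed. Their median differences were 0.52 in mouse 1 and 0.10 in mouse 2. Lcn2 was the 1 gene at least 2-fold higher in both. The adhesion molecule Vcam1 read 8.88 and 7.27 in the acetate-fed kidneys and 6.81 in the control, and the chemokine Cxcl10 read 7.61 and 6.71 against 6.24. Ier3, an early response gene, was lower in both, at 9.62 and 9.89 in the acetate-fed kidneys against 10.32 in the control. None passed limma's test over all probe sets. With tied pairs left out limma called 5 higher and 1 lower, against 6.55% and 4.97% of all probe sets fitted. Many of these genes are also induced by other cytokines. A further 6 genes of the list were below the filter and entered no test. Sele, Csf2 and Tnfaip6 were identical on all 3 arrays, and Ptx3 differed by -0.51 in both mice. Cxcl2 differed by 1.88 in mouse 1 and 0.25 in mouse 2, and Il6 by 0.29 and 0.

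The adaptors of death and survival moved in both directions, with 4 of 12 tested genes above the control and 5 below it in both mice, against 26.9% and 27.5% of all probe sets that passed. Birc3, the NF-kB-induced ubiquitin ligase cIAP2 that binds TRAF2, read 7.97 and 7.44 in the acetate-fed kidneys against 6.58 in the control, 2.61-fold and 1.81-fold higher. Bid, which carries the death signal to mitochondria, read 8.89 and 8.64 in the acetate-fed kidneys and 9.40 in the control. Limma called 1 of the 12 higher, Xiap, the inhibitor of caspases, at 8.48 in both acetate-fed kidneys against 8.28 in the control (adjusted p = 0.034), a nearly tied pair whose call was lost with tied pairs left out (adjusted p = 0.47). It called 2 lower, both with tied pairs: Casp8, the initiator caspase, at 8.55 in both acetate-fed kidneys against 8.72 (adjusted p = 0.032), and Fadd, which recruits it, at 7.77 in both against 7.93 (adjusted p = 0.024). These 3 calls, where 5.18% of all probe sets were called higher and 5.35% lower, also ended in the upper 40% and after either rescaling. With tied pairs left out limma called Birc3 higher (adjusted p = 2.3e-05) and Bid lower (adjusted p = 0.0016), against 6.55% and 4.97% of all probe sets fitted.

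The kinases and ubiquitin enzymes of the pathway were nearly level. Of 21 tested genes, 3 were above the control and 8 below it in both mice, against 26.9% and 27.5% of all probe sets that passed. A further 5 were identical on all 3 arrays, against 20.5%. The median differences over the 21 were -0.01 (mouse 1) and 0 (mouse 2) on the log2 scale. Tnfaip3, the feedback inhibitor A20, had the largest difference, 6.21 and 5.78 in the acetate-fed kidneys against 5.75 in the control, and Tnip1, its binding partner, read 8.21 and 8.07 against 7.91. Limma called 1 lower, Tab2, by 0.14, with a tied pair, where 5.35% of all probe sets were called lower. This call too ended in the upper 40% and after either rescaling, and with tied pairs left out limma called 0 of the 21. Of 6 tested genes of ligand shedding and further receptors, 3 were higher in both mice, against 26.9% of all probe sets that passed, and none was called by limma in either fit. Among the 3 was Adam17, the protease that releases TNF, at 7.84 and 7.71 in the acetate-fed kidneys against 7.41 in the control.

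**Figure D4:**
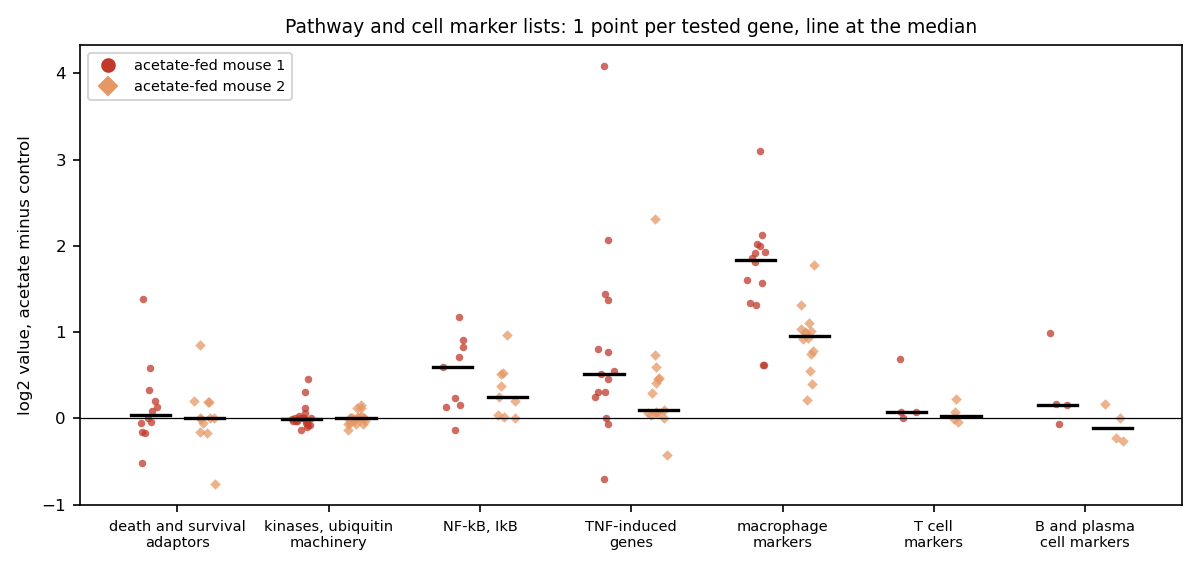
Difference from the control array in log2 units (vertical axis) for each tested gene of 4 pathway lists and 3 lists of cell markers (horizontal axis), circles for acetate-fed mouse 1, diamonds for acetate-fed mouse 2, lines at the medians. The NF-kB list has medians of 0.59 and 0.25 and the macrophage list 1.84 and 0.96, while the kinase and ubiquitin list has medians of -0.01 and 0.

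Markers of several cell types had the same order of arrays as Tnfsf13b, Tnfrsf1b, Ltb and Traf1, with acetate-fed mouse 1 highest and the control lowest. Over all probe sets that passed the filter, 26.9% were higher in both mice and 27.5% lower. Of 15 macrophage and leukocyte markers on the array, 14 were tested and all 14 were higher in both mice, and the marker sum on the linear scale was 9142 in acetate-fed mouse 1 and 4942 in acetate-fed mouse 2, against 2545 in the control. Ptprc, the pan-leukocyte antigen CD45, read 7.80 and 6.89 in the acetate-fed kidneys and 5.89 in the control. The 4 fibroblast markers were all higher in both mice, with medians of 2.47 and 0.97, and summed to 6330 and 2337 in the acetate-fed kidneys against 1244 in the control. Col1a1, a chain of type I collagen, read 9.54 and 7.75 in the acetate-fed kidneys and 6.74 in the control. The 4 neutrophil markers summed to 335 and 141 in the acetate-fed kidneys and 90.7 in the control. Of these, S100a8, a calcium-binding protein of neutrophils and monocytes, was 6.49-fold and 1.91-fold higher. Elane and Mpo, which encode neutrophil granule enzymes, were identical on all 3 arrays at 4.75 and 3.38. Equal mRNA levels cannot be read from such flat values. All 4 endothelial markers were higher in both mice, with sums of 1782 and 1706 in the acetate-fed kidneys and 1496 in the control. Among them Kdr differed by only 0.02 in mouse 1 and 0.03 in mouse 2. Markers of the proximal tubule went the other way, 6 of 6 lower in both mice, with sums of 23368 and 21893 in the acetate-fed kidneys against 29512 in the control. Other kidney lists had a different order, with the highest sums in acetate-fed mouse 2. In mouse 1, mouse 2 and the control these were 21756, 23026 and 18510 for loop and distal tubule. For collecting duct they were 4708, 7118 and 3725, and for podocytes 978, 989 and 826. Only Aqp2 of the 3 collecting duct markers was higher in both mice. Scnn1g differed by -0.44 in mouse 1 and 0.13 in mouse 2, and Avpr2 by -0.08 and 0.30.

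The 6 T cell markers summed to 307 and 274 in the acetate-fed kidneys and 262 in the control, and 2 of 4 tested were higher in both mice. The 5 B and plasma cell markers summed to 436 and 256 against 278 in the control. Of 4 tested, 1 was higher in both mice and 1 lower, with median differences of 0.16 and -0.11. The largest difference in this list was that of Jchain, at 8.20 and 6.96 in the acetate-fed kidneys and 7.22 in the control. Below the filter were Itgam of the macrophage list, Mpo of the neutrophil list, Cd2 and Cd3g of the T cell list and Ms4a1 of the B cell list. No value in the table is 0, and the part of cell numbers in the family's differences was not tested.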

How the data were processed

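Total RNA of mouse kidney was biotin-labelled and hybridised to 1-colour Affymetrix arrays, 1 per mouse. The table deposited by the authors holds log2 values. The submitters' processing notes name MAS5, while scaling between arrays, summary method, background correction and filters are not stated in the labels or the file. Detection calls were not used, and precision is limited by there being 3 arrays. Names came from the platform annotation: 34945 had 1 symbol, 932 several and 9160 none, and all 82 members matched the RefSeq table by Entrez identifier. The 64 Affymetrix controls were left out.

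Tested probe sets were the upper 60% by mean over the 3 arrays (mean at least 4.21). Calls used limma 3.58.1 in R 4.3.3 (lmFit, eBayes with intensity trend, Benjamini-Hochberg at 0.05), with 1 residual degree of freedom, from the acetate pair; the single control is taken to vary as the pair does. Where a gene had several probe sets, the brightest tested one stands for it (without one, the brightest). Tables and plots used Python 3.11.15, pandas 2.3.3 and matplotlib 3.10.9. Promoters are from RefSeq on GRCm38.p6.

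Members, pathway lists, marker lists and alternatives were chosen with earlier results of these data known. Named were members at least 1.5-fold from the control in both mice, at least 2-fold in 1, or called by limma, and the best known members; the rest are given for their roles. From each pathway list, called genes or the largest differences were named. Alternatives were no filter or the upper 40%, quantile normalization, median centring, 16 added on the linear scale, no trend, tied pairs left out, 1.5-fold, the median over a gene's probe sets, and leaving out each acetate-fed mouse.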

Additional observations from a re-analysis of the deposited data

How the results depend on the processing

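The count of members at least 2-fold lower in both mice stayed at 0 under every alternative run. The count at least 2-fold higher stayed at 0 except at 1.5-fold (1, Tnfrsf1b) and when an acetate-fed mouse was left out, where it ranged from 0 (mouse 2 alone) to 1 (mouse 1 alone, Tnfsf13b). Over all probe sets, the 1.5-fold limit gave 450 higher and 333 lower, against 93 and 97 at 2-fold. The limma calls among members changed most: 3 higher and 3 lower became 8 and 5 with no filter, 5 and 3 with no trend, 3 and 0 with tied acetate pairs left out, and 0 and 0 in the upper 40% of probe sets, after quantile normalization and after median centring. Over all probe sets limma also called 0 in these 3 settings, where 3513, 4292 and 4959 had an unadjusted p under 0.05. All 6 called probe sets kept their direction under quantile normalization and median centring, with adjusted p between 0.114 and 0.775. The members' median difference of 0 became 0.049 in the upper 40%, -0.0072 after quantile normalization and -0.023 after median centring. Of 20 named probe sets, 14 had a difference other than 0, and 0 of these changed sign under the 2 scalings. By the median over the gene's probe sets, Tnfsf13b differed by 0.01 and Tnfrsf1b by 0.48, against 0.87 and 0.81. No limma test exists without an acetate-fed mouse, since no residual degree of freedom is left. No paired analysis was possible because the control carries no replicate number in its label and is a single array. The table holds no background or detection value, so how far a dim member lies above background is unknown.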
